A study of Mus musculus with 6 samples.

Results

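In mast cells sorted from mouse skin, 10 genes of the lymphoid antigen receptors were followed among 47643 genes counted. They were the immunoglobulin constant genes Ighm, Ighd and Igkc, the B cell receptor signal chains Cd79a and Cd79b, the T cell receptor CD3 chains Cd3d, Cd3e and Cd3g, the coreceptor Cd4 and the T lineage transcription factor Bcl11b. They were chosen by name with their embryonic and adult counts already known, so the values of these 10 genes are a description and carry no test. All 10 were found in the table, and 6 passed a filter on low counts: Ighm, Cd79a, Cd79b, Cd3g, Cd4 and Bcl11b. A gene that is high in 1 group passes that filter through that group.

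B and T cells assemble the genes of their antigen receptors by joining variable (V), diversity (D) and joining (J) segments, and splice the joined exon to a constant (C) gene. In B cells the heavy chain of IgM or IgD pairs with a light chain and signals through Cd79a and Cd79b. In T cells the receptor signals through the CD3 chains, CD4 binds MHC class II, and Bcl11b keeps cells in the T lineage. Mast cells are tissue-resident cells of the myeloid lineage that carry IgE on Fc receptors and signal through ITAM motifs of the same kind as those of CD79 and CD3, but are not known for a rearranged receptor of their own.

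All mice carried Cdh5CreERT2, a Cre recombinase driven by the endothelial gene Cdh5 and active in the presence of 4-hydroxytamoxifen, which was given at E7.5. The 3 embryonic libraries (titled PRIM) came from E16.5 skin, sorted as CD45+ F4/80- CD64- ckit+ ST2+, and the submitters describe these cells as derived from yolk sac hemogenic endothelium. The 3 adult libraries (titled DEF) came from adult skin, sorted as CD45+ F4/80- CD64- ckit+ Fcer1+, and are described as definitive. Neither gate is described as removing B or T cells, and the labels do not state whether the Cre-dependent label was used in the sort. The groups thus differ at once in age, in described origin, in the last marker of the gate and in a Dispase step that took off adult epidermis, and these cannot be told apart. Nothing in the labels ties replicates to separate animals, and p-values then measure the spread between these samples only, which may be technical.

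Libraries held 34122162 to 46778093 counts in embryonic and 40662062 to 49813523 in adult samples, and 3 counts corresponded to 0.0603 to 0.0849 CPM (counts scaled to a common library size). Fitted values are from edgeR's quasi-likelihood model over the 15111 genes that passed the filter, with Benjamini-Hochberg adjusted p-values and a threshold of 0.05, and a gene past it is called. Of these genes 31.7% were called higher in adult and 31.2% higher in embryonic cells. The label was checked with mast cell markers such as Cpa3, Cma1, Hdc and Tpsb2, which summed to 124681 to 136477 CPM (embryonic) and 62325 to 65205 CPM (adult). Macrophage and dendritic cell markers summed to 64.3 to 87.1 CPM (embryonic) and 1230 to 3282 CPM (adult), lowest in adult replicate 3. That list includes the MHC class II genes H2-Aa and H2-Ab1. In bulk RNA, fewer cells of a type and less RNA per cell cannot be told apart.

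The 10 genes split by direction rather than by receptor. Libraries of the groups did not overlap for 8 of them: Ighm, Ighd, Cd79a, Cd3e and Cd4 were higher in all 3 adult libraries, and Cd79b, Cd3g and Bcl11b in all 3 embryonic libraries. Over the 27509 genes with at least 1 count, 24.0% were higher in every adult library and 21.6% in every embryonic library. Since the genes were chosen with this contrast known, nothing is read from the comparison of those shares. Cd3d overlapped between the groups, and Igkc had no count in any library. Both heterodimer partners Cd79a and Cd79b, and 2 of the CD3 chains, therefore lay on opposite sides.

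**Figure D1:**
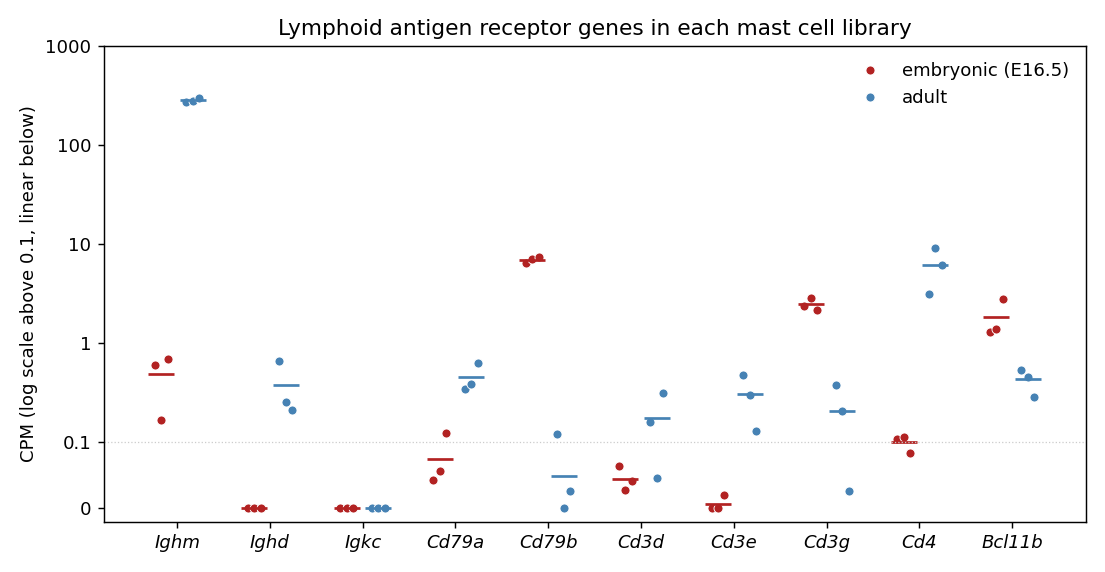
CPM of each gene in each of the 6 libraries, with a log scale above 0.1 and a linear scale below it; points are libraries and horizontal bars are group means of 3. Adult Ighm lies between 273 and 295 CPM and all other points lie below 10 CPM.

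Ighm, the constant gene of the IgM heavy chain, was the only one of the 10 with a high level. Its counts (ENSMUSG00000076617.9, GRCm38, chr12:113418558-113422730, minus strand, 1886 exon bases) were 28, 6 and 33 in the embryonic libraries and 13609, 11957 and 11224 in the adult libraries. The embryonic libraries were all low, and the adult libraries all high and close to each other. In CPM these were 0.486 ± 0.277 (SD, n = 3) and 281 ± 11.9 (SD, n = 3), a fitted difference of 9.10 ± 0.30 (SE) on the log2 scale, or 550-fold. Per length, adult Ighm was at 149 ± 6.31 RPKM (CPM per kilobase of exon), at rank 290 of the 27509 genes by mean RPKM, and embryonic Ighm was at 0.258 ± 0.147 RPKM.

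The other constant genes of the locus had few or no counts. Ighd, the constant gene of IgD (ENSMUSG00000104213.5, chr12:113406604-113416324), which starts 2233 bases downstream of Ighm and is expressed with it in mature B cells by alternative splicing, had 0 counts in each embryonic library and 33, 11 and 8 in the adult libraries. This is 0.376 ± 0.250 CPM in adult cells and, against a floor of 3 counts over the embryonic group, at least 17.2-fold higher. Of its 52 adult counts 33 were in replicate 1, and without that library, an alternative chosen after seeing the data, the bound was 10.1-fold. Per length, adult Ighd stood at 0.198 ± 0.132 RPKM. Among the switched isotypes, Ighg1 had 4 counts, all in adult replicate 1, and Igha 2, all in adult replicate 2. Ighe, Ighg2b, Ighg2c and Ighg3 had no count in any library.

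Light chains were not detected as constant genes. Igkc, the kappa constant gene (ENSMUSG00000076609.2, chr6:70726435-70726966, 532 exon bases), had 0 counts in all 6 libraries. It lies within the span of the noncoding gene Gm30211, and whether their exons overlap was not examined. Reads in exons of both genes would not have been counted. This 0 therefore sets no upper bound and does not show that kappa RNA was missing. Gm30211 also had 0 counts in all 6 libraries. The lambda constant genes Iglc1, Iglc2 and Iglc3 were at 0 in all 6 libraries as well. Counts of other immunoglobulin genes beside adult Ighm were thus few, with the limit given above for Igkc.

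Variable segments bear on whether the Ighm RNA came with a rearranged exon. The 185 heavy chain V genes and pseudogenes, 65077 exon bases together, had 9, 10 and 20 counts in embryonic and 13, 7 and 19 in adult libraries, so the groups overlapped while Ighm differed 550-fold. Adult libraries held 1047, 1708 and 591 Ighm counts for each V count. The share of V counts in the sum of V and Ighm counts was 0.0954% (95% exact binomial interval 0.0508 to 0.163), 0.0585% (0.0235 to 0.121) and 0.169% (0.102 to 0.264) in adult replicates 1 to 3. These intervals cover counting error only, since reads without molecular identifiers are not independent molecules.

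All 22 immunoglobulin D and 14 J segments had 0 counts. Reads that span a J segment and Ighm overlap more than 1 gene and were not counted, per the counting options, and reads of near-identical V genes that align to several places were left out too, so V, D and J counts understate rearranged RNA. The kappa V genes and pseudogenes had 1 count in the embryonic libraries and 1, 0 and 14 in adult replicates 1, 2 and 3. Adult replicate 3 was thus the only library with more than 1 kappa V count. No lambda constant count accompanied it, and the 0 of Igkc does not show that kappa constant RNA was missing there. Dntt, which adds bases at V(D)J joints and was picked after its values were seen, had 4, 2 and 5 counts in embryonic and 359, 244 and 329 in adult libraries (log2 6.36, edgeR adjusted p = 5.0e-07). Of the recombinase genes, Rag1 had 6 counts in embryonic replicate 1 and 1 in adult replicate 3, and Rag2 had 2 and 3 in the same libraries.

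**Figure D2:**
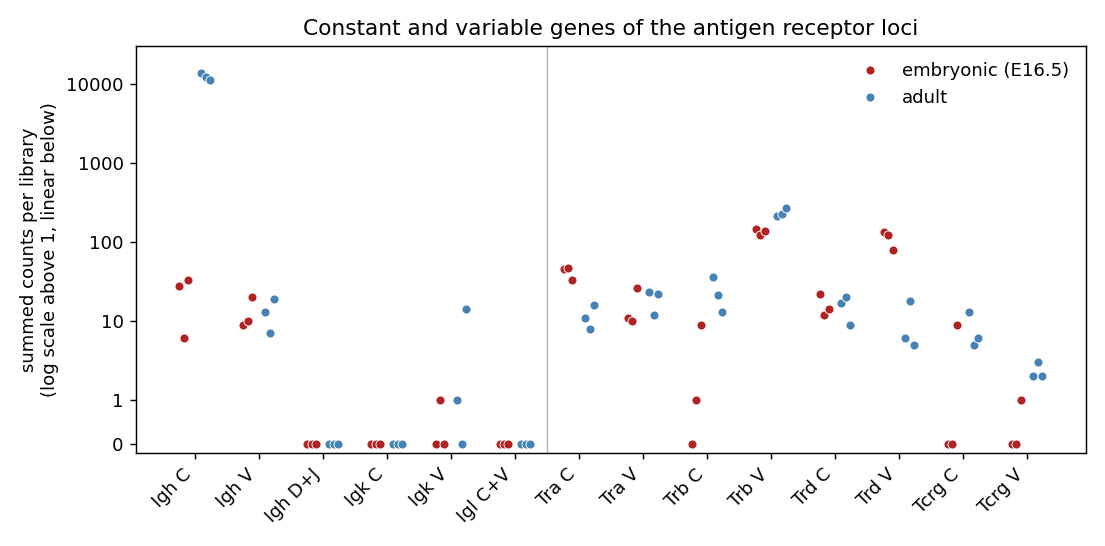
Summed counts of constant (C), variable (V), diversity (D) and joining (J) genes of each antigen receptor locus in each library, on a log scale above 1 and a linear scale below it; points are libraries. Adult heavy chain C counts lie between 11232 and 13646, while heavy chain V counts are between 7 and 20 in all 6 libraries.

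B cell markers were called in both directions. Of 16 markers 6 were tested. Of these, 2 were called higher in adult and 1 higher in embryonic cells (31.7% and 31.2% over all tested genes). With so few genes, nothing is read from these counts. The median log2 difference was -0.07 beside 0.02 over all tested genes. The B cell identity factor Pax5 and Ms4a1, which encodes CD20, had 0 counts in all 6 libraries. Summed B cell markers were 6.25 to 18.6 CPM (embryonic) and 18.1 to 26.5 CPM (adult). The groups overlapped through embryonic replicate 3 alone, where Ly6d was at 13.9 CPM. Most of the adult sum was Cd72, a coreceptor that binds semaphorin CD100, at 16.2 ± 1.85 CPM against 0.916 ± 0.0880 CPM (log2 4.14, edgeR adjusted p = 1.4e-07). Fcrla, an Fc receptor-like protein, was also higher in adult cells (log2 3.91, edgeR adjusted p = 5.2e-05), and the adaptor Bank1 was higher in embryonic cells (log2 -2.84, edgeR adjusted p = 0.00084).

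Adult replicate 3, with the lowest sum of macrophage and dendritic cell markers, had 295 CPM of Ighm, and replicates 1 and 2 had 273 and 276 CPM. That sum varied between 1230 and 3282 CPM, but it includes MHC class II genes and is not a measure of macrophages alone. Lyz2, also in the list, was at 142, 168 and 62.5 CPM in adult replicates 1 to 3. The part of macrophages and dendritic cells in the Ighm level was not tested. By the root mean square difference of log2(CPM + 0.5) around each gene's mean over the 6 libraries, profiles among the most like that of Ighm were those of the chemokine Ccl2 (0.207) and Olr1, a lectin-like scavenger receptor (0.368). Olr1 levels were 1.97 ± 0.184 (embryonic) and 625 ± 124 CPM (adult).

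**Figure D3:**
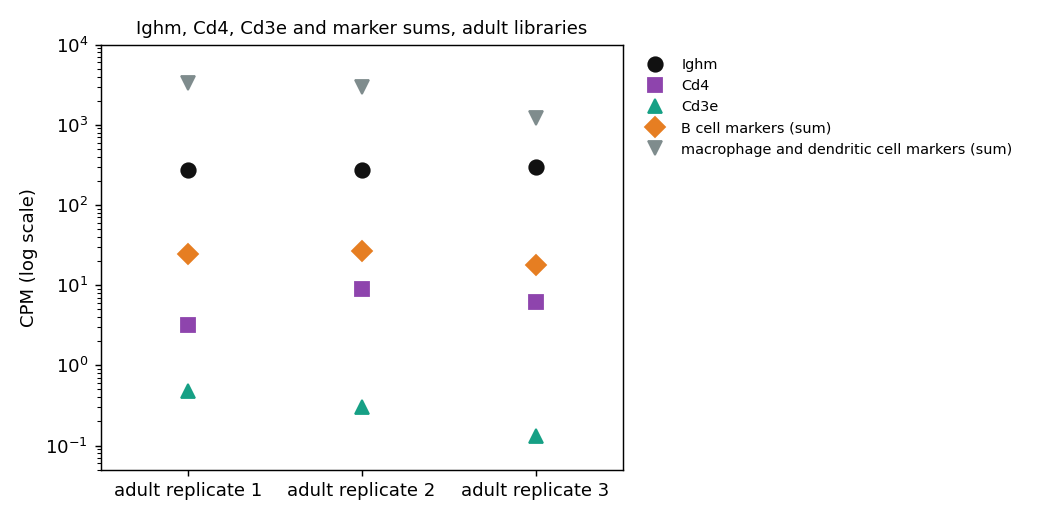
CPM, on a log scale, of Ighm, Cd4 and Cd3e and the summed B cell and macrophage and dendritic cell markers in the 3 adult libraries; each symbol is 1 library. Ighm lies between 273 and 295 CPM in all 3. The macrophage and dendritic cell sum, which includes MHC class II genes, goes down to 1230 CPM in replicate 3.

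Plasma cell genes went the other way from Ighm. Of 5 tested plasma cell markers 4 were called higher in embryonic cells and 0 in adult cells (31.2% and 31.7% over all tested genes). Their median log2 difference was -3.94. By edgeR at an unadjusted p under 0.05, DESeq2 and limma-voom, 0 were higher in adult cells too. Mzb1, a chaperone that assists IgM assembly in the endoplasmic reticulum, had 367, 289 and 473 counts in embryonic and 0, 0 and 1 in adult libraries (edgeR adjusted p = 3.0e-07), a ratio of summed counts of 1140 (95% counting interval 204 to 45072). Derl3, of the machinery that removes misfolded proteins, was at 5.21 ± 1.19 against 0.114 ± 0.0872 CPM (log2 -5.54, edgeR adjusted p = 9.9e-06), and the log2 value was -6.27 without adult replicate 3. Prdm1, a transcription factor of plasma cell differentiation, was also higher in embryonic cells (log2 -3.94, edgeR adjusted p = 2.9e-06), as was the receptor Tnfrsf13b (log2 -0.84, edgeR adjusted p = 0.00078).

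The 2 chains that carry the signal of the B cell receptor moved apart. Cd79a, which encodes Ig-alpha (ENSMUSG00000003379.7, chr7:24897381-24902197), had 2, 2 and 6 counts in embryonic and 17, 17 and 24 in adult libraries. Its levels were 0.0749 ± 0.0440 and 0.455 ± 0.155 CPM, a fitted 5.77-fold higher level in adult cells (log2 2.53 ± 0.65 SE). Cd79b, which encodes Ig-beta (ENSMUSG00000040592.11, chr11:106311341-106314762), had 298, 248 and 358 counts in embryonic and 6, 0 and 1 in adult libraries.

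All embryonic libraries were high for Cd79b and all adult libraries at or near 0, the reverse of Ighm. Its levels were 6.96 ± 0.536 (embryonic) and 0.0490 ± 0.0634 CPM (adult), a fitted 126-fold difference (log2 -6.98 ± 0.60 SE). The adult counts come mostly from replicate 1, and without it the fitted value was -8.83. Per length, Cd79b was at 4.86 ± 0.374 RPKM and Cd79a at 0.0514 ± 0.0302 RPKM in embryonic cells, where no Ighm above 0.69 CPM was present. In adult cells, where Ighm was at 149 RPKM, Cd79a was at 0.312 ± 0.106 RPKM and Cd79b at 0.0342 ± 0.0443 RPKM.

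The CD3 chains form a cluster on chromosome 9 in which Cd3g and Cd3d start next to each other on opposite strands, 1361 bases apart. Cd3g (ENSMUSG00000002033.13, chr9:44969572-44980431) had 112, 101 and 105 counts in embryonic and 19, 9 and 1 in adult libraries. Cd3d (ENSMUSG00000032094.7, chr9:44981793-44987052) had 3, 1 and 2 against 8, 2 and 12, and Cd3e (ENSMUSG00000032093.6, chr9:44998743-45009590) 0, 0 and 1 against 24, 13 and 5. The 3 chains join every surface T cell receptor together, but here only Cd3g was above 1 CPM in any library.

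Levels of Cd3g were 2.48 ± 0.342 (embryonic) and 0.205 ± 0.178 CPM (adult), a fitted 11.6-fold difference (log2 -3.54 ± 0.65 SE) that was -4.33 without adult replicate 1 and -3.05 without adult replicate 3. Its 3 embryonic libraries were close to each other and all above the highest adult library. For Cd3e, the ratio of summed counts, adult over embryonic and scaled by library size, was 41.6 (95% counting interval 7.07 to 1681), and for Cd3d it was 3.63 (1.43 to 10.9) with overlapping libraries. In adult cells Cd3g, Cd3e and Cd3d stood at 0.192 ± 0.166, 0.212 ± 0.122 and 0.132 ± 0.102 RPKM, differences smaller than the spread between libraries. In embryonic cells Cd3g was at 2.32 ± 0.320 RPKM, above Cd3d at 0.0339 ± 0.0138 and Cd3e at 0.00484 ± 0.00838 RPKM.

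The RefSeq promoter table (GRCm38.p6) held 5 of the 10 genes: Cd79a, Cd3g, Cd3d, Cd3e and Bcl11b. The windows of the CD3 genes, from 250 bases before to 50 after the start, are shown because these neighbours differ in direction. They lie at chr9:44980382-44980681 (minus strand), chr9:44981536-44981835 (plus strand) and chr9:45009562-45009861 (minus strand) for Cd3g, Cd3d and Cd3e. Capitals mark matches on either strand to motifs of 3 transcription factor families, and matches of different motifs do not overlap. The motif searched for zinc finger factors of the Gata1 family was AGATAAG. For the E-box of helix-loop-helix factors it was CAGGTG. For factors of the Ets family it was GGAAGT.
Cd3g: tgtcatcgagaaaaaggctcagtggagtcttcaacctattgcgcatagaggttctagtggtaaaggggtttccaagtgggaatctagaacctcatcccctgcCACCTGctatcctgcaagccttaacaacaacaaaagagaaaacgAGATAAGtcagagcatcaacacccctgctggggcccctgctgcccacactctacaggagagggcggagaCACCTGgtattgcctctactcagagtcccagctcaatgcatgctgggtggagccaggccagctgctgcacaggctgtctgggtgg
Cd3d: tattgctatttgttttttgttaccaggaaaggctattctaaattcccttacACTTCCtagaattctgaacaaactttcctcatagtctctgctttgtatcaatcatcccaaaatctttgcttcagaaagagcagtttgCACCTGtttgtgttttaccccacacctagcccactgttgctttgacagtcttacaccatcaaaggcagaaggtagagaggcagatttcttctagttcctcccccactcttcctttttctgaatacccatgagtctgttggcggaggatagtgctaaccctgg
Cd3e: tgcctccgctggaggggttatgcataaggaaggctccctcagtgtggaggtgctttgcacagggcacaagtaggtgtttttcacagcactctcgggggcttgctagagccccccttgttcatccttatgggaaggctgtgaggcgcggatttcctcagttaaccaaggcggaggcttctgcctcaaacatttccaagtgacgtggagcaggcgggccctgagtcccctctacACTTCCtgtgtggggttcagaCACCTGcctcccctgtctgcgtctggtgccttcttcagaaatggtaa
AGATAAG was found in Cd3g, 104 bases before its start, and in none of the other 4 windows, while 3.04% of all 32851 windows held it. CAGGTG was found in Cd79a and all 3 CD3 genes, against 20.2% of all windows, and GGAAGT in Cd79a, Cd3d, Cd3e and Bcl11b, against 23.8%. ATGCAAAT, the octamer of immunoglobulin promoters, and TGTGGT, a RUNX motif, were in 1.74% and 16.8% of all windows and in none of the 5. A match is a stretch of letters and was not measured as a bound site.

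Receptor chains that CD3 would accompany were rare. Of the alpha chain, the constant gene Trac had 46, 47 and 33 counts in embryonic and 11, 8 and 16 in adult libraries (log2 -1.86, edgeR adjusted p = 0.012), and without adult replicate 2 the adjusted p was 0.054. The beta constant genes did not pass the filter and were not tested, with Trbc1 at 0, 0 and 2 against 18, 7 and 10 counts and Trbc2 at 0, 1 and 7 against 18, 14 and 3, where the groups overlapped. Trdc, the delta constant gene, had 22, 12 and 14 against 17, 20 and 9 counts and did not pass the test (edgeR adjusted p = 0.90). Summed over 8 T cell receptor constant genes, counts were 68, 60 and 65 in embryonic and 77, 54 and 44 in adult libraries.

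Of 178 T cell receptor V genes and pseudogenes 34 had a count, and 3 of them had most. Trdv4 was higher in embryonic cells, with 135, 122 and 79 counts against 6, 16 and 5 (log2 -3.67, edgeR adjusted p = 0.00027, and log2 -4.37 without adult replicate 2). Trbv12-2 was higher in adult cells, with 36, 35 and 33 against 132, 101 and 106 (log2 1.67, edgeR adjusted p = 0.0021). Trbv13-2 had 105, 83 and 98 against 78, 124 and 155 and did not pass the test. The J segments had 0, 1 and 14 counts in embryonic and 10, 4 and 7 in adult libraries, so few of these V counts came with counted J segments, under the same counting limits as for the immunoglobulin genes.

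Cd4, a coreceptor that is also made by some myeloid cells in the mouse, was higher in adult cells. Cd4 (ENSMUSG00000023274.14, chr6:124864692-124888221) had 5, 4 and 4 counts in embryonic and 157, 392 and 233 in adult libraries. All adult libraries were above all embryonic libraries, and adult replicate 2 was the highest. In CPM this was 0.101 ± 0.0158 against 6.11 ± 2.94, a fitted 59.1-fold difference (log2 5.88 ± 0.51 SE). Across adult libraries Cd4 was 3.16, 9.04 and 6.13 CPM and the macrophage and dendritic cell sum 3282, 2944 and 1230 CPM, so the library with the highest sum had the lowest Cd4.

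Of 8 ligands and partners of CD4, 6 were called higher in adult and 1 in embryonic cells (31.7% and 31.2% over all tested genes). Their median log2 difference was 4.33. The MHC class II genes H2-Aa (log2 8.45, edgeR adjusted p = 0.00035), H2-Eb1 (7.98, 0.00010) and H2-Ab1 (6.32, 0.00019) led the list, and each was lowest in adult replicate 3. Without embryonic replicate 3 the log2 value of H2-Aa was 9.34. Lck, the kinase bound to CD4 in T cells, had 2, 8 and 1 counts against 25, 28 and 3 and did not pass the test (edgeR adjusted p = 0.075). It was called higher in adult cells without adult replicate 3 (edgeR adjusted p = 0.027) or without embryonic replicate 2 (0.028), and when all genes with at least 1 count were fitted (0.041). Unc119, which binds Lck, was higher in embryonic cells (log2 -1.23, edgeR adjusted p = 1.3e-05). MHC class II genes and macrophage markers moved with Cd4 between the groups, and their part in it was not tested.

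Cd4 lies in a gene-dense region. Of 8 tested genes within 50 kb, Gnb3, P3h3, Gpr162, Lag3 and Ptms were called higher in adult and Usp5, Cdca3 and Mlf2 higher in embryonic cells. Over all tested genes 31.7% were called higher in adult and 31.2% higher in embryonic cells. With so few genes, nothing is read from the calls of neighbours here or below. Lag3, a CD4-related inhibitory receptor 16139 bases away, had 7, 10 and 2 counts against 142, 52 and 115 (log2 3.93, edgeR adjusted p = 0.00054), and 4.53 without embryonic replicate 2. Beside Cd79b, Psmc5 (log2 -0.60) and Smarcd2 (log2 -0.71) were called higher in embryonic cells, the direction of Cd79b but smaller. Beside Cd79a, Rps19 was called higher in embryonic cells (log2 -2.26) and Arhgef1 was not called (edgeR adjusted p = 0.15). Beside the CD3 cluster, Ube4a was called higher in embryonic cells (log2 -0.81), and Mpzl2, Mpzl3 and Atp5l were not called. Rpia near Igkc was not called either, and no tested gene lay within 50 kb of Bcl11b.

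Bcl11b (ENSMUSG00000048251.15, chr12:107910403-108003602), a zinc finger factor that T and innate lymphoid cells need, was low in both groups. It had 61, 49 and 134 counts in embryonic and 27, 20 and 11 in adult libraries, and the highest embryonic library was replicate 3. Its levels were 1.83 ± 0.835 and 0.431 ± 0.129 CPM, a fitted 4.21-fold difference (log2 -2.07 ± 0.48 SE), and -1.67 without embryonic replicate 3. Per length this was 0.226 ± 0.103 RPKM in embryonic and 0.0531 ± 0.0159 RPKM in adult cells.

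Among lymphoid transcription factors, 14 of 32 tested were called higher in adult and 4 higher in embryonic cells (31.7% and 31.2% over all tested genes), at a median log2 difference of 0.42. Higher in adult were Bcl6 (log2 4.67, edgeR adjusted p = 5.4e-08), which acts in germinal centre B cells and helper T cells, Runx1 (2.30, 2.4e-06), Notch1 (1.96, 1.0e-06) and Zbtb7a (1.25, 3.7e-06). Higher in embryonic cells with Bcl11b were its paralogue Bcl11a (log2 -2.84, edgeR adjusted p = 9.6e-05), the chromatin organiser Satb1 (-1.61, 1.0e-05), Tox (-1.60, 0.00020) and Foxp1 (-0.42, 0.0071). Ikzf1, Tcf3, Fli1 and Spi1 were the most abundant per length that were not called, although without adult replicate 3 Ikzf1 was called higher in embryonic (edgeR adjusted p = 0.043) and Spi1 higher in adult cells (0.0090).

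Of 31 genes of B cell receptor signalling in the table, 26 passed the filter. Of these, 12 were called higher in adult and 6 higher in embryonic cells (31.7% and 31.2% over all tested genes); the median log2 difference was 0.45. Blnk, the adaptor that links Cd79 to phospholipase C, was at 2.74 ± 0.373 against 80.0 ± 6.60 CPM (log2 4.86, edgeR adjusted p = 9.3e-09). The inhibitory receptor Fcgr2b (log2 3.68, edgeR adjusted p = 4.7e-08), Cd72 and the exchange factor Vav2 (3.24, 2.4e-07) were also higher in adult cells. Higher in embryonic cells were Ifitm1 (log2 -3.98, edgeR adjusted p = 9.9e-05), Nfatc2 (-2.83, 0.00024), Malt1 (-1.38, 2.3e-05) and Nfatc3 (-1.06, 3.4e-05). Inpp5d, Prkcb, Dapp1 and Grb2 were the most abundant per length that were not called, although Prkcb was called higher in embryonic cells without embryonic replicate 3 (edgeR adjusted p = 0.035).

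Of 32 tested genes of T cell receptor signalling, 12 were called higher in adult and 10 higher in embryonic cells (31.7% and 31.2% over all tested genes), and their median log2 difference was 0.17. Among the genes higher in embryonic cells were Skap1, an adaptor for integrin activation, at 100.05 ± 2.54 against 0.467 ± 0.154 CPM (log2 -7.70, edgeR adjusted p = 3.6e-09) and Sla2 (-6.86, 3.4e-08). In adult cells Sla (log2 3.34, edgeR adjusted p = 1.1e-07), Ptpn22 (3.61, 1.7e-06), Lat (1.85, 8.9e-07) and Ptprc (1.19, 3.6e-06) were higher. Sla and Sla2, related adaptors that lower receptor levels, were thus called in opposite directions. Vav1, Grap2, Themis2 and Dgka were the most abundant per length that were not called.

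T cell markers, a list that shares Skap1 and Ubash3a, among others, with the signalling genes, had 4 of 9 tested called higher in embryonic cells and 0 in adult cells by edgeR, DESeq2 and limma-voom. At an unadjusted p under 0.05, edgeR gave 2 higher in adult cells. They summed to 646 to 1009 CPM (embryonic) and 24.4 to 27.1 CPM (adult), so the groups did not overlap. Sh2d1a and Cd40lg had 0 counts in all 6 libraries. Of 3 tested gamma delta T cell markers, Sox13 (log2 -0.87, edgeR adjusted p = 0.00014) and Trdv4 were called higher in embryonic cells. The constant gene Trdc was not called (log2 -0.08, edgeR adjusted p = 0.90). With 3 genes, beside 31.2% called higher in embryonic cells over all tested genes, nothing is read from this count. Natural killer and innate lymphoid markers had 3 of 10 called each way, near the shares over all tested genes of 31.7% and 31.2%.

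**Figure D4:**
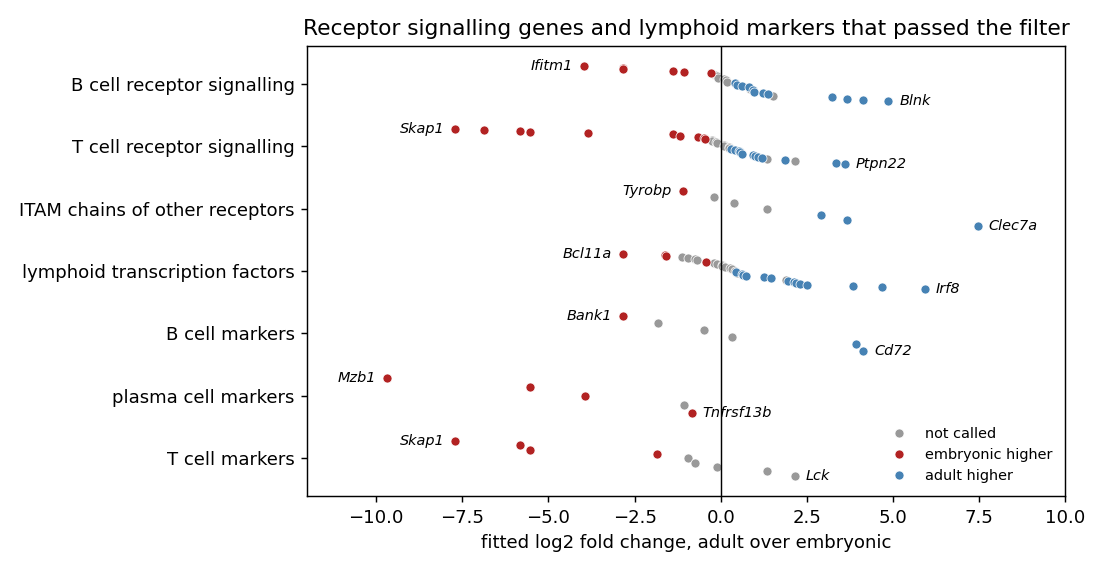
Fitted log2 fold change, adult over embryonic, of the tested genes in each list; each point is a gene, coloured by whether it was called higher in adult, higher in embryonic or not called, and the outermost genes are named. B cell receptor signalling runs from Ifitm1 to Blnk (4.86), T cell receptor signalling from Skap1 to Ptpn22 (3.61), and Mzb1 is the lowest of the plasma cell markers.

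Other receptor chains with ITAM motifs, as in Cd79a, Cd79b and CD3, or with related motifs, as in Clec7a, ranged widely in level. Fcer1g, the gamma chain of Fc receptors, was at 598 ± 54.3 against 526 ± 19.6 CPM, which did not pass the test (edgeR adjusted p = 0.14), but did without embryonic replicate 2 (0.044, higher in embryonic cells). Ms4a2, the beta chain of the IgE receptor, was higher in adult cells (log2 2.90, edgeR adjusted p = 3.2e-08), as was Clec7a, a receptor for fungal glucans (7.46, 6.2e-07), and Tyrobp was higher in embryonic cells (-1.10, 7.0e-05). Cd247, the zeta chain of the T cell receptor, had 5, 10 and 7 counts against 21, 22 and 16 and did not pass the test (edgeR adjusted p = 0.062).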

How the data were processed

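RNA was measured in 6 SMART-Seq v4 and Nextera XT libraries, which mark no strand and carry no molecular identifiers. The deposited table holds read counts, made with featureCounts 1.5.0-p1 over exons of GENCODE M9 without strand, per the file headers. Per the same headers, a read that fell in more than 1 gene or aligned to more than 1 place was left out, so reads of V, D and J segments spliced to a constant gene can be lost, and antisense reads cannot be told apart. The submitters' processing notes name STAR and edgeR, without versions, and the build GRCm38 (mm10). Symbols came by gene ID from GENCODE M21 (47224 matched, 419 did not), 0 columns belonged to other samples, and exon lengths and coordinates are those of the deposited table.

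Counts were fitted with edgeR 4.0.16 in R 4.3.3 (TMM scaling; filterByExpr, minimum count 10; robust glmQLFit; glmQLFTest; Benjamini-Hochberg over 15111 genes), with group as the only term. CPM and RPKM used TMM-scaled library sizes. Replicates of a group differed beyond counting noise and each counted as 1. The procedure was tested on simulated counts: with dispersions from the fitted trend, false calls stayed under the nominal rate. With gene-by-gene dispersions they exceeded it, so an adjusted p near 0.05 may be too small.

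The members and gene lists were chosen with earlier results of these data known. Named were all 10 members; in signalling, transcription factor, ITAM and CD4 partner lists the 4 smallest adjusted p-values each way and the 4 highest RPKM not called; in marker lists the 4 highest CPM and, for B, plasma and T cell lists, genes with at most 3 counts; segments with at least 100 counts over a group; tested genes within 50 kb; and the 3 profiles most like a member above 10 CPM. A few of these are not reported here, and isotype, T cell receptor constant, Rag and Dntt counts were added after their values were seen. Alternatives were RLE and upper quartile scaling, other filters, DESeq2 1.42.0, limma-voom (limma 3.58.1), no robust estimation, a replicate block, each replicate left out, a threshold of 0.01 and, added after seeing the data, replicate 3 of both groups left out.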

Additional observations from a re-analysis of the deposited data

How the results depend on the processing

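All 6 fitted members kept their direction under every alternative that could fit them; Cd79a did not pass a filter of 1 CPM in 3 libraries. Leaving out 1 replicate, or replicate 3 of both groups, gave log2 values of 8.71 to 9.37 for Ighm, 2.22 to 3.08 for Cd79a, -8.83 to -6.42 for Cd79b, -4.33 to -3.05 for Cd3g and -2.29 to -1.42 for Bcl11b. Without replicate 3 of both groups, Cd79a was at 2.83, Cd79b at -6.66, Cd3g at -3.14 and Bcl11b at -1.42; the cause was not tested. Limma-voom gave -7.48 for Cd79b and -3.95 for Cd3g. Counts of called genes over all genes and in the lists of B and T cell receptor signalling and lymphoid transcription factors stayed within 1.5 times under all alternatives; counts in the other lists were not recomputed. The median of all genes was 0.12 with all genes of at least 1 count, and at most 0.05 otherwise.

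Replicate numbers are shared by the groups. Correlations of deviations were -0.12, -0.08 and -0.13 for numbers 1, 2 and 3, and -0.0022 to 0.10 between different numbers. Same-numbered samples were thus not more alike than others and were not treated as pairs. The cause of their lower values was not tested. With the replicate number as a block, 4469 genes were called higher in adult and 4379 in embryonic cells, and 11 and 5 of the B cell receptor signalling genes.

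Log2 values of 9 genes that were not called changed sign. Leaving out replicates gave -0.019 to 0.40 for Atp5l, -0.033 to 0.26 for Dgka, -0.11 to 0.13 for Fli1, -0.23 to 0.49 for Gzmb, -0.40 to 0.13 for Icos, -1.91 to 0.49 for Mpzl2, -1.11 to 0.77 for Mpzl3, -0.060 to 0.65 for Trbv13-2 and -0.33 to 0.12 for Trdc. With all genes of at least 1 count, Fli1 was at -0.025. Depth limits Cd3d, Cd3e and Ighd, which had few counts and no fitted fold.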
